A study of Homo sapiens with 6 samples.

Results

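The guide sgMETTL1.6 was compared with the control guide sgNS across all genes whose mean over the 4 libraries concerned reached 1 TPM, which were 10905 of the 18806 genes in the deposited table. TPM gives each gene's estimated portion of the transcripts in a library, on a total common to all libraries. At the edge of this selection, ADGRF3 lay just inside at 1.00 TPM and MSANTD3-TMEFF1 just outside at 0.9975 TPM. The Mono-mac-6 line used here comes from a human acute myeloid leukaemia (AML) and carries the MLL-AF9 fusion. All cells came from 1 Cas9-expressing clone, so every value describes that clone. This clone received sgNS, sgMETTL1.6 or a second METTL1 guide, sgMETTL1.3, by lentivirus. Transduced cells of all groups were selected with blasticidin at 10 µg/ml and hygromycin B at 200 µg/ml and were collected about 8 to 10 days after transduction. There were 2 poly(A)+ RNA libraries for each guide, 6 in all. Column names include EV, an abbreviation that is not explained. Nothing states that replicates were cultured separately, so p-values here reflect spread among libraries that may be technical only. Read depth is unknown, since TPM does not keep it, and counting intervals could not be computed.

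METTL1 is the catalytic subunit of the methyltransferase that, with its partner WDR4, places N7-methylguanosine (m7G) on a subset of tRNAs and thereby affects their stability and translation. Several of the pathways described here answer to the state of translation, protein folding and metabolism. In the integrated stress response, phosphorylation of the translation factor eIF2α favours the translation of ATF4, a transcription factor that turns on amino acid synthesis, uptake and tRNA charging. HSF1 turns on chaperones when proteins are unfolded. NRF2, held down by KEAP1, turns on antioxidant and NADPH-producing genes, and SREBP2 turns on cholesterol synthesis when membrane sterols are low.

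The promoters of the genes that moved together were searched for the response elements of these pathways, and 2 stretches for each of 4 elements are shown because their genes are among those described here. The window was the 250 bases before each start site, taken from RefSeq on GRCh38.p14. Each stretch is written 5′ to 3′ on the strand of its gene, with the matching letters in capitals.
CHAC1, chr15:40953222-40953309, plus strand: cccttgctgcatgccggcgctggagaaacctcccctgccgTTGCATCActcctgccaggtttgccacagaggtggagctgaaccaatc
SLC1A5, chr19:46784864-46784951, minus strand: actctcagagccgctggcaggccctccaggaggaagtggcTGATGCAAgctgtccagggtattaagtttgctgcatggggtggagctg
HSPA8, chr11:123062319-123062386, minus strand: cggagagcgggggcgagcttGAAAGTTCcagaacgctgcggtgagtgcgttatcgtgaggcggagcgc
HSP90AA1, chr14:102087080-102087167, minus strand: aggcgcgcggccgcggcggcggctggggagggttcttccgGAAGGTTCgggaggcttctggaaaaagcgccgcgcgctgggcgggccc
MX1, chr21:41431815-41431903, plus strand: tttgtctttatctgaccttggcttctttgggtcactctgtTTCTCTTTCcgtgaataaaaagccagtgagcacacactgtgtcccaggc
CXCL10, chr4:76023670-76023747, minus strand: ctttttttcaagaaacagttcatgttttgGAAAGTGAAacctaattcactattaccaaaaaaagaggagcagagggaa
TXNRD1, chr12:104286890-104286978, plus strand: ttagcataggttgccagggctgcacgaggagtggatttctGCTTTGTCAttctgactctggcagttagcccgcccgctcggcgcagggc
ME1, chr6:83431140-83431228, minus strand: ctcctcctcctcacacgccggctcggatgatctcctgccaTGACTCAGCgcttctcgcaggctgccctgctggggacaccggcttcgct
In CHAC1 and SLC1A5 the capitals mark TGATGNAA, the C/EBP-ATF response element, read on either strand as for every motif here. It was found in 4 of the 37 integrated stress response genes with a promoter in RefSeq, or 10.8%, against 3.14% of all 35116 promoters. In HSPA8 and HSP90AA1 they mark GAANNTTC, the core of the heat shock element, which was found in 9 of 25 heat shock genes (36%) and in 5.78% of all promoters. In MX1 and CXCL10 they mark GAAANNGAA, the interferon-stimulated response element, found in 18 of 29 interferon genes (62.1%) and in 6.88% of all promoters. In TXNRD1 and ME1 they mark TGACNNNGC, the core of the antioxidant response element, found in 5 of 16 NRF2 targets (31.2%) and in 10.9% of all promoters. A sterol regulatory element, TCACNCCAC, was found in 1 of 20 cholesterol genes (5%) and in 0.883% of all promoters. All promoters include those of genes not tested here. Over the 9018 tested genes with a promoter, the shares were 1.54%, 4.07%, 5.67%, 12.3% and 0.965%, in the order given. A match describes the letters only and does not show that a factor binds there.

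METTL1 mRNA was lower with sgMETTL1.6. METTL1 (ENSG00000037897.16, minus strand, chr12:57768471-57772793, GRCh38) stood at 15.38 and 13.89 TPM in the sgNS libraries and at 11.15 and 11.69 TPM in the sgMETTL1.6 libraries. The difference was -0.33 on the log2(TPM + 1) scale used for every log2 change here (standard error, SE, 0.07; limma, adjusted p = 0.0016). The sgMETTL1.3 libraries held 18.29 and 16.56 TPM, and sgMETTL1.6 differed from these by -0.57 (adjusted p = 0.00017). Both sgMETTL1.6 libraries lay below the other 4. The mRNA level does not measure the protein. WDR4, the partner subunit, held 21.45 and 26.11 TPM with sgNS and 30.65 and 34.36 TPM with sgMETTL1.6, a rise of 0.44 (adjusted p = 0.00045). Of the 13 tested genes next to METTL1 on chromosome 12, METTL1 included, 3 rose and 6 fell against sgNS, where 25.7% of all genes rose and 25.4% fell. METTL21B, which codes for another methyltransferase and lies beside METTL1, rose from 8.32 and 9.65 TPM to 12.9 and 13.61 TPM, and MARCH9 (0.31) and AGAP2 (0.26) rose too, the latter losing its call when 1 library was left out. CTDSP2 (-0.58), DTX3 (-0.41), CDK4 (-0.28), TSPAN31 (-0.26) and OS9 (-0.21) fell, and ARHGEF25, CYP27B1, PIP4K2C and TSFM did not pass.

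Against sgNS, 5570 of the 10905 genes passed an adjusted p under 0.05 (limma with Benjamini-Hochberg adjustment), which is 51.1%, with 2799 higher (25.7%) and 2771 lower (25.4%). The counts were even in both directions, but the sizes were not. A rise of at least 1 on the log2 scale was seen in 9 called genes and a fall of that size in 151, and 34 genes fell by at least 2 while 0 rose that far. Against sgMETTL1.3, 2494 genes passed (22.9%), of which 789 were higher (7.24%) and 1705 lower (15.6%). That split depended on scaling: it was 1093 higher and 808 lower after median-ratio scaling, 967 and 798 after quantile normalisation, and 931 and 959 when TPM was rescaled without ribosomal protein genes. The median change of all genes against sgMETTL1.3 was -0.05. sgMETTL1.3 against the same sgNS libraries gave 6379 calls (58.5%), 3722 higher (34.1%) and 2657 lower (24.4%). The replicates differed by a median of 3.15% with sgMETTL1.6 and 2.42% with sgNS over the 1742 genes with at least 100 TPM. Markers of T, B, erythroid, megakaryocytic and fibroblastic cells summed to at most 4.06 TPM per list in any library, and the epithelial list to 12.84 to 17.05 TPM, nearly all of it KRT18. The myeloid marker CD33 held 51.17 and 49.26 TPM with sgMETTL1.6 and the monocytic markers CD14, CSF1R and CD4 were under 1 TPM in all 6 libraries.

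**Figure D1:**
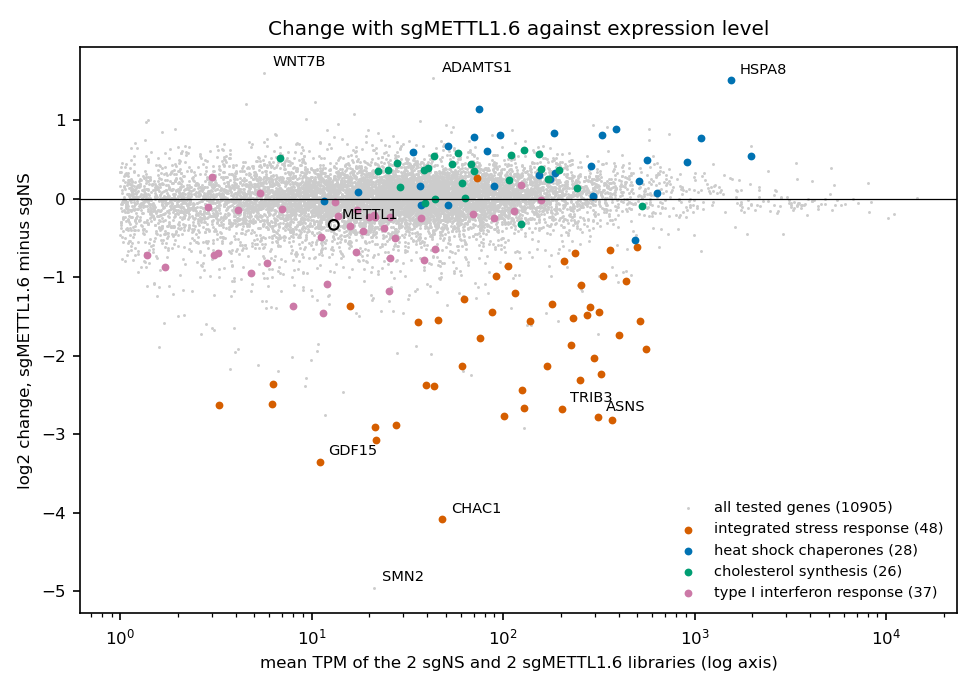
Log2 change of sgMETTL1.6 against sgNS (vertical axis, difference of mean log2(TPM + 1)) against mean level over the 4 libraries (horizontal axis, log scale, TPM) for the 10905 tested genes. Each point is 1 gene, and 4 gene lists are coloured: the 48 integrated stress response genes lie almost all below 0 and reach -4.08 in CHAC1, and most of the 28 heat shock genes and 26 cholesterol synthesis genes lie above 0.

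SMN2, given below with its near-identical copy SMN1, fell further than any gene in this paragraph, but its separate change is uncertain. Among the other genes, the deepest falls were in the integrated stress response. Of 48 tested genes of this list (49 listed), 47 fell against sgNS and 1 rose, where 25.4% of all genes fell and 25.7% rose. The median change was -1.75 against 0.00 over all genes. CHAC1, which degrades glutathione, held 88.78 and 94.39 TPM with sgNS and 3.8 and 5.24 TPM with sgMETTL1.6 (log2 change -4.08, SE 0.10, adjusted p = 1.4e-12). TRIB3, a pseudokinase that feeds back on ATF4, held 342.1 and 361.0 TPM with sgNS and 52.73 and 55.88 TPM with sgMETTL1.6 (log2 change -2.67, SE 0.04, adjusted p = 7.2e-14). Both sgMETTL1.6 libraries lay far below both sgNS libraries in each of these genes. That the groups did not overlap was a condition for naming the deepest falls. PSAT1 and PHGDH of serine synthesis fell from 657.2 and 640.5 TPM to 92.97 and 90.05 TPM and from 408.8 and 426.1 TPM to 82.32 and 85.42 TPM. ASNS, which makes asparagine, fell from 546.7 and 544.7 TPM to 79.57 and 77.5 TPM. With sgMETTL1.3 ASNS fell nearly as far, to 89.53 and 83.09 TPM. CTH, which makes cysteine, fell from 40.36 and 38.49 TPM to 3.66 and 3.94 TPM with sgMETTL1.6. SLC1A5, a glutamine transporter, fell from 585.9 and 595.0 TPM to 282.4 and 289.9 TPM (-1.04). ATF4 itself fell less, from 604.4 and 608.2 TPM to 389.9 and 401.4 TPM (log2 change -0.61, SE 0.03, adjusted p = 3.1e-09). Its partners and followers DDIT3 (-1.44), ATF3 (-1.37), ATF5 (-1.34) and CEBPB (-2.13) fell further. ALDH18A1, the entry enzyme of proline synthesis, was the 1 member that rose (66.28 and 66.44 TPM to 79.63 and 79.99 TPM, 0.26).

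Others of the 15 deepest falls over all genes were ALDH1L2 (-2.88), SESN2 (-2.77), INHBE (-2.62) and SLC6A9 (-2.61) of this list, and S100P (-2.91) and ADM2 (-2.75) outside it.

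Most genes that load and import amino acids fell too. Over all genes, 25.4% fell and 25.7% rose against sgNS. Of 23 tested cytosolic aminoacyl-tRNA synthetases and their scaffold proteins, which charge tRNAs with amino acids, 15 fell and 3 rose, with a median of -0.74. WARS fell from 526.9 and 537.0 TPM to 109.3 and 115.7 TPM (-2.23) and SARS from 284.2 and 292.9 TPM to 96.34 and 98.2 TPM (-1.56). FARSA (0.44), RARS (0.27) and KARS (0.16) were the 3 that rose. Among 19 amino acid transporters 12 fell and 4 rose, with a median of -0.68. SLC7A11, which brings in cystine, fell from 75.34 and 71.18 TPM to 13.8 and 12.74 TPM, and SLC38A1, a glutamine carrier, from 13.35 and 13.13 TPM to 2.53 and 2.53 TPM. SLC36A1, SLC36A4, SLC38A5 and SLC43A2 rose by 0.31 to 0.36, although the call of SLC43A2 was lost when 1 library was left out. SLC7A11 also belongs to the stress response and NRF2 lists, and the transporter and stress response lists share further genes, SLC6A9 among them. These counts are therefore not independent.

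Many genes of the integrated stress response list were lower with sgMETTL1.6 than with sgMETTL1.3. Of the 48 genes, 29 were lower and 0 were higher, where 15.6% of all genes were lower and 7.24% higher (median -0.16, against -0.05 over all genes), and the number lower was 23 to 25 under the 3 other scalings, with 1 or 2 higher. GDF15, a secreted stress hormone, held 2.96 and 3.63 TPM with sgMETTL1.3 and 1.29 and 1.03 TPM with sgMETTL1.6 (log2 change -0.99, SE 0.10, adjusted p = 2.6e-05). STC2, a secreted glycoprotein, held 7.88 and 7.97 TPM and 4.44 and 4.08 TPM, and VEGFA, the angiogenic factor, 63.15 and 62.24 TPM and 38.1 and 38.66 TPM (-0.76 and -0.69). TRIB3 (-0.68), ATF5 (-0.63), SLC7A11 (-0.66) and CEBPB (-0.49) were also lower, each with both sgMETTL1.6 libraries below both of sgMETTL1.3. The serine and folate enzymes of the list, picked out after their values were seen, gave smaller and larger differences. PHGDH differed by 0.08 (adjusted p = 0.14), SHMT2 by 0.00 (0.95), MTHFD2 by 0.05 (0.31) and PCK2, which makes phosphoenolpyruvate, by -0.05 (0.48). PSAT1 passed with a small difference of -0.16 (0.008), and MTHFD1L, the mitochondrial formate-producing enzyme, and ALDH1L2, a mitochondrial folate dehydrogenase, with larger ones of -0.41 (3.0e-05) and -0.33 (0.0077). The call of ALDH1L2 was lost when 1 library was left out. ATF4 mRNA differed by -0.07 (adjusted p = 0.11).

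**Figure D2:**
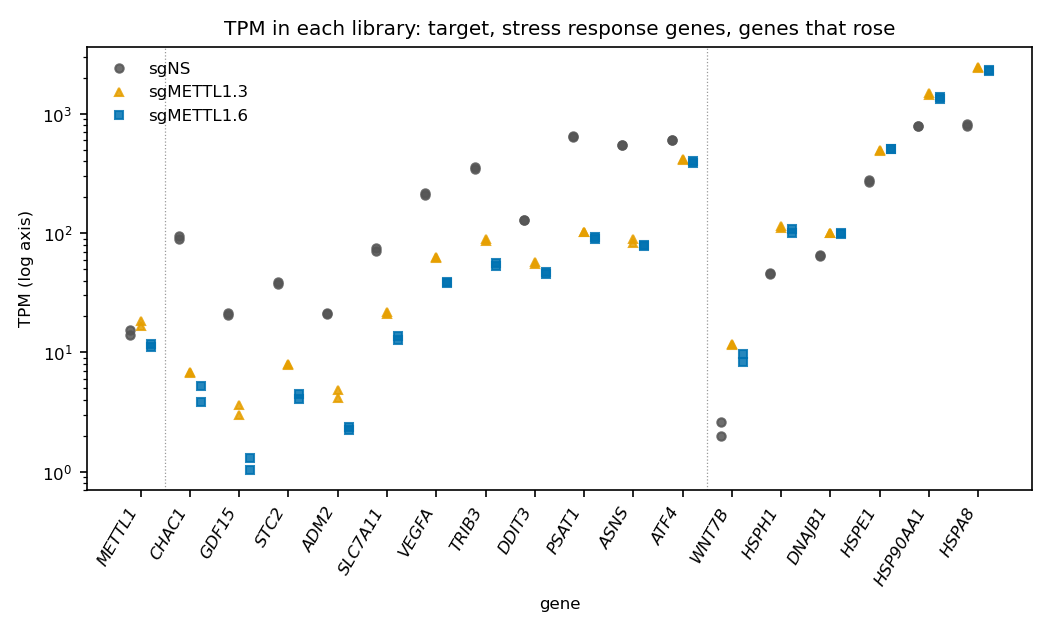
TPM (log axis) in each of the 6 libraries for METTL1, for stress response genes with ADM2 and for genes that rose; each point is 1 library, and colour and shape mark the guide. GDF15, STC2, VEGFA and TRIB3 are lowest with sgMETTL1.6, and HSPA8 stands near the same height with both METTL1 guides.

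Most chaperones rose. Of 28 tested heat shock genes (30 listed), 21 rose and 1 fell against sgNS, with a median of 0.45, where 25.7% of all genes rose and 25.4% fell. HSPA8, the constitutive HSP70, held 791.5 and 820.0 TPM with sgNS and 2330 and 2267 TPM with sgMETTL1.6 (log2 change 1.51, SE 0.03, adjusted p = 1.5e-13). HSPH1, its nucleotide exchange factor, held 46.66 and 45.71 TPM and 107.5 and 100.1 TPM (log2 change 1.15, SE 0.05, adjusted p = 3.0e-10), and HSP90AA1, the inducible HSP90, 796.5 and 791.4 TPM and 1391 and 1330 TPM (log2 change 0.78, SE 0.03, adjusted p = 3.8e-10). In all 3 genes both sgMETTL1.6 libraries were well above both sgNS libraries, which the naming rule required of genes drawn from the largest rises. The HSP40 cochaperone DNAJA1 (0.81), the HSP90 activator AHSA1 (0.84) and the mitochondrial cochaperonin HSPE1 (0.89) rose too. HSPA9, the mitochondrial HSP70, was the 1 that fell, from 576.9 and 575.6 TPM to 403.8 and 396.5 TPM (log2 change -0.53, SE 0.03, adjusted p = 5.0e-08). BAG3, a strongly heat-inducible cochaperone, did not pass (-0.02, adjusted p = 0.79), nor did HSF2 (-0.08, 0.21). Differences between the guides were small, from -0.22 to 0.21 over the list. Against sgMETTL1.3, 7 of the 28 were lower and 2 higher, where 15.6% of all genes were lower and 7.24% higher. The number lower was 3 to 5 under the 3 other scalings. HSPH1 was at -0.11 (adjusted p = 0.1) against sgMETTL1.3 and HSPA8 at -0.09 (0.035), a call that was lost with 1 library left out.

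Among other folding and degradation genes, TRiC and proteasome subunits moved less, and endoplasmic reticulum stress genes moved in both directions. Of the 8 TRiC subunits, which fold actin and tubulin, 6 rose and 0 fell (median 0.24), led by CCT6A (0.45) and CCT7 (0.39). Of 33 proteasome subunits 20 rose and 4 fell (median 0.15), with PSMB2 at 0.45 and PSMA1 at -0.25. Of 25 endoplasmic reticulum stress genes 9 rose and 9 fell, where 25.7% of all genes rose and 25.4% fell. The lumenal chaperones MANF (94.91 and 100.5 TPM to 166.1 and 161.2 TPM, 0.74), SDF2L1 (0.73), HSPA5 (445.5 and 454.1 TPM to 590.5 and 588.5 TPM, 0.39) and CALR (0.35) rose. The sensor ERN1 (-1.46) and the transcription factor XBP1 fell, XBP1 from 534.8 and 540.4 TPM to 347.9 and 344.9 TPM (log2 change -0.63, SE 0.03, adjusted p = 2.3e-09). XBP1 was higher with sgMETTL1.6 than with sgMETTL1.3 (258.1 and 254.2 TPM, 0.43, adjusted p = 1.2e-06), while ERN1 was lower (-0.45).

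**Figure D3:**
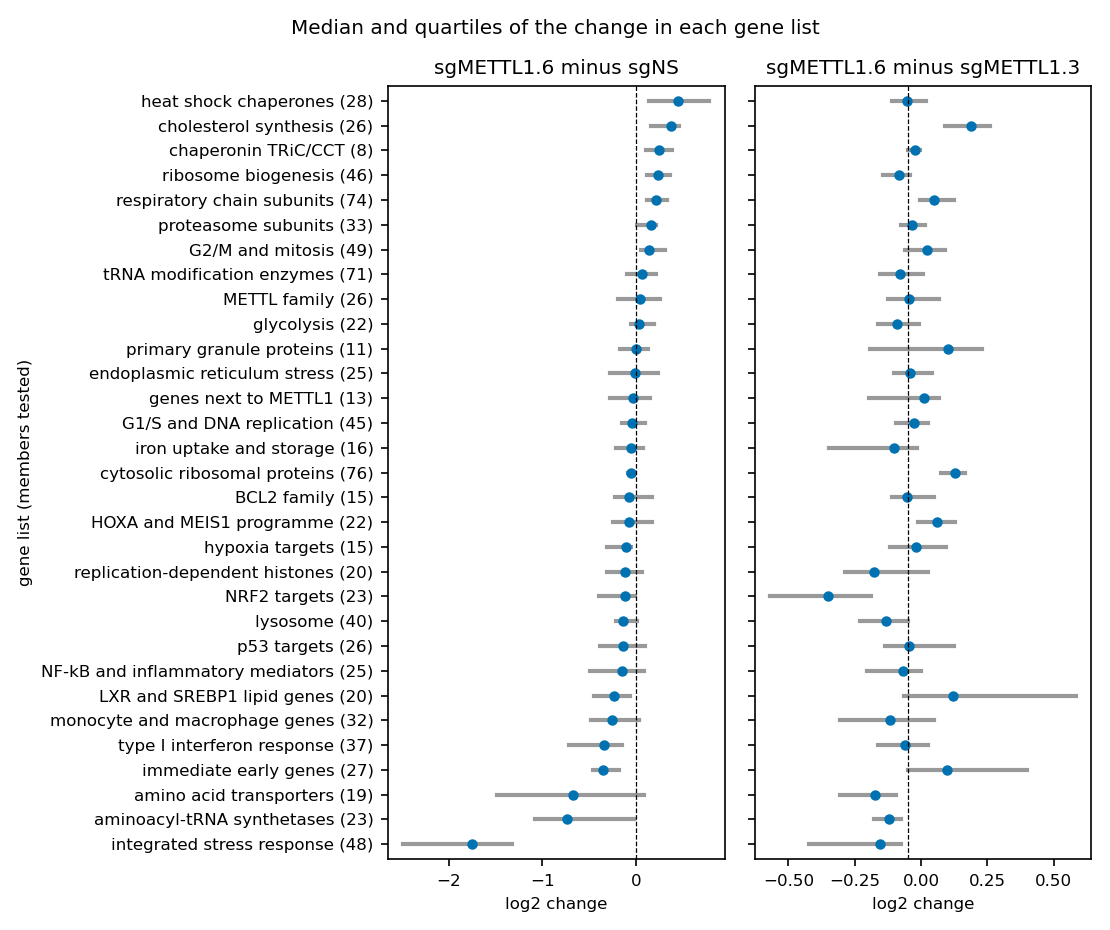
Median log2 change of each gene list for sgMETTL1.6 against sgNS and against sgMETTL1.3 (points; horizontal axes, log2(TPM + 1) difference), with bars from the lower to the upper quartile, the number of tested genes beside each list and a dashed line at the median of all genes. The integrated stress response lies farthest to the left at -1.75 against sgNS, and the NRF2 targets lie farthest to the left against sgMETTL1.3 at -0.35.

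The widest separation between the 2 METTL1 guides among these lists was in the NRF2 targets. Of 23 tested genes, 20 were lower with sgMETTL1.6 than with sgMETTL1.3 and 2 were higher (median -0.35), against 15.6% and 7.24% of all genes. The number lower was 18 to 19 under the 3 other scalings. HMOX1, which breaks down haem, held 13.09 and 14.75 TPM with sgNS, 22.78 and 23 TPM with sgMETTL1.3 and 7.15 and 9.58 TPM with sgMETTL1.6. The difference from sgMETTL1.3 was -1.36 (SE 0.10, adjusted p = 2.2e-06) and that from sgNS -0.68 (adjusted p = 9.2e-05). OSGIN1, an oxidative stress-induced growth inhibitor, held 2.06 and 1.67 TPM (sgNS), 3.98 and 3.48 TPM (sgMETTL1.3) and 1 and 1.01 TPM (sgMETTL1.6), a difference of -1.24 from sgMETTL1.3 and -0.51 from sgNS. In both genes the sgMETTL1.6 libraries were the lowest and the sgMETTL1.3 libraries the highest, with no overlap. FTH1, the heavy chain of the iron store ferritin, held 3339 and 3369 TPM (sgNS), 4055 and 4017 TPM (sgMETTL1.3) and 2455 and 2466 TPM (sgMETTL1.6), with log2 change -0.71, SE 0.02, adjusted p = 1.3e-09 against sgMETTL1.3. FTL, the light chain, held 6616 and 6766 TPM with sgNS and 6530 and 6834 TPM with sgMETTL1.6 (adjusted p = 0.95) but 8731 and 9006 TPM with sgMETTL1.3 (-0.41, adjusted p = 5.9e-07).

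ME1, which produces NADPH, held 12.13 and 11.99 TPM with sgNS, 12.88 and 14.18 TPM with sgMETTL1.3 and 8.6 and 7.28 TPM with sgMETTL1.6, the latter below both (-0.55 and -0.70). NQO1, a quinone reductase, held 36.38 and 36.39 TPM (sgNS), 50.72 and 52.76 TPM (sgMETTL1.3) and 34.67 and 32.01 TPM (sgMETTL1.6). Its difference from sgMETTL1.3 was -0.62 (adjusted p = 5.6e-06) and that from sgNS -0.12 (0.06), which did not pass. SQSTM1, an autophagy receptor that sequesters KEAP1, fell against both (-0.60 and -0.43). The glutathione genes GSR (-0.37), GCLM (-0.35) and GCLC (-0.28) and the thioredoxin reductase TXNRD1 (-0.30) were all lower than with sgMETTL1.3. PRDX1 and TXN, of the thioredoxin system, were the 2 that were higher (0.14 and 0.22), and ABCC1 did not pass (-0.15, adjusted p = 0.12). Against sgNS the list gave 13 lower and 2 higher (median -0.12), where 25.4% of all genes were lower and 25.7% higher. TRIM16L (log2 change -1.08, SE 0.07, adjusted p = 4.2e-07) and SLC48A1, a haem transporter (log2 change -0.86, SE 0.07, adjusted p = 4.6e-06), lay outside the list and were named after their values were seen. They too were lower than with sgMETTL1.3, while neither passed against sgNS (adjusted p = 0.064 and 0.22).

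**Figure D4:**
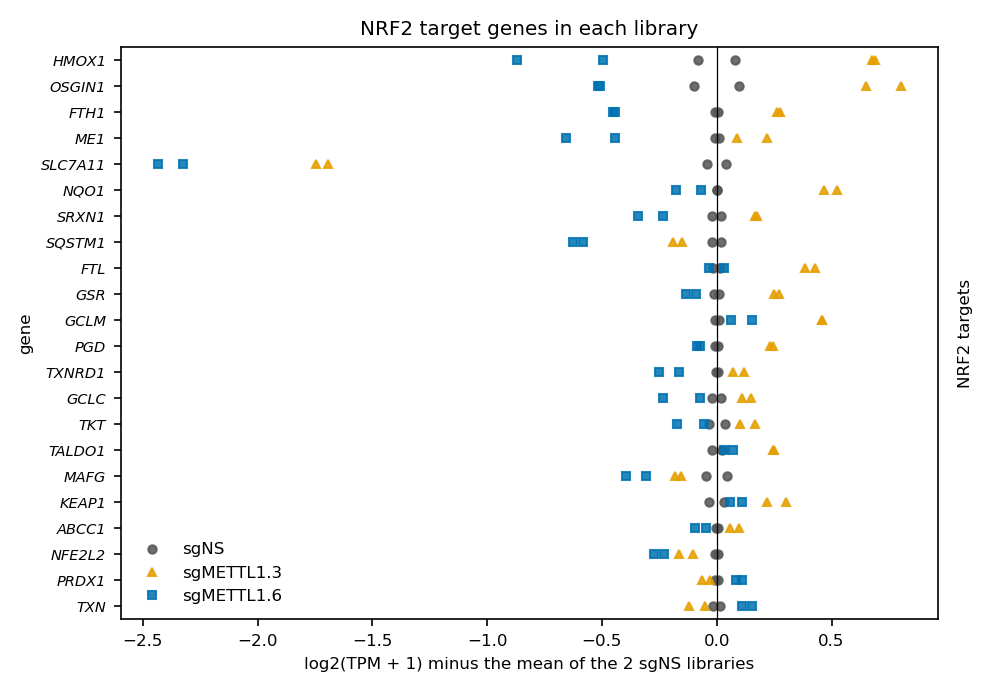
Level of 22 of the 23 tested NRF2 targets in each of the 6 libraries, as log2(TPM + 1) minus the mean of the 2 sgNS libraries (horizontal axis); each point is 1 library, and genes are ordered by sgMETTL1.6 minus sgMETTL1.3. For HMOX1, OSGIN1 and FTH1 both sgMETTL1.6 points lie below the sgNS points and both sgMETTL1.3 points above them.

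Most cholesterol synthesis genes rose, and many stood above the levels with sgMETTL1.3 as well. Of 26 tested genes, 20 rose and 2 fell against sgNS (median 0.37), where 25.7% of all genes rose and 25.4% fell. Against sgMETTL1.3, 16 were higher and 0 lower (median 0.19), where 7.24% of all genes were higher and 15.6% lower. IDI1, which isomerises the isoprene unit, held 47.64 and 44.81 TPM with sgNS, 50.81 and 49.73 TPM with sgMETTL1.3 and 71.41 and 68.11 TPM with sgMETTL1.6 (log2 change 0.58, SE 0.05, adjusted p = 4.9e-07 against sgNS). MSMO1, a sterol demethylating enzyme, held 56.86 and 58.47 TPM (sgNS), 58.19 and 56.64 TPM (sgMETTL1.3) and 80.79 and 76.39 TPM (sgMETTL1.6), with log2 change 0.44, SE 0.04, adjusted p = 4.0e-06 against sgNS. In both genes the sgNS and sgMETTL1.3 libraries lay close together with the sgMETTL1.6 libraries above all 4. SQLE, which makes squalene epoxide, held 100.9 and 101.9 TPM (sgNS), 139.4 and 138.3 TPM (sgMETTL1.3) and 157.7 and 155.8 TPM (sgMETTL1.6), and so was lowest with sgNS and highest with sgMETTL1.6. INSIG1, a brake on SREBP processing that is itself an SREBP target, was lower with sgMETTL1.3 (111.2 and 111.8 TPM) than with sgNS (158.5 and 155.6 TPM). It was highest with sgMETTL1.6 (190.1 and 184.7 TPM, 0.74 against sgMETTL1.3, adjusted p = 5.6e-08). SREBF2, which codes for SREBP2, fell from 135.0 and 140.2 TPM to 109.2 and 111.1 TPM (-0.32, adjusted p = 1.5e-05). The other fall was FDPS (-0.09), a call that was lost when 1 library was left out.

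The lipid genes under LXR and SREBP1 took another course. Over all genes, 25.4% fell and 25.7% rose against sgNS, and 7.24% were higher and 15.6% lower than with sgMETTL1.3. Of 20 tested, 13 fell and 3 rose against sgNS (median -0.24), yet 10 were higher and 3 lower than with sgMETTL1.3 (median 0.12). SREBF1, which codes for SREBP1, held 37.25 and 39.85 TPM with sgNS, 25 and 24.54 TPM with sgMETTL1.6 and only 8.02 and 9.03 TPM with sgMETTL1.3 (log2 change 1.44, SE 0.06, adjusted p = 3.5e-08 against sgMETTL1.3). ABCA1, a cholesterol exporter, held 5.77 and 5.92 TPM with sgNS, 1.96 and 2.09 TPM with sgMETTL1.6 and 0.5 and 0.49 TPM with sgMETTL1.3 (log2 change 1.02, SE 0.10, adjusted p = 2.4e-05). SCD and FADS2, the desaturases, and MYLIP, which degrades the LDL receptor, differed from sgMETTL1.3 by 0.72, 0.80 and 0.77. In SREBF1, ABCA1, SCD and FADS2 the sgMETTL1.6 libraries lay between the other groups without overlap. MYLIP did not pass against sgNS (-0.07, adjusted p = 0.2). APOE, which carries cholesterol out of macrophages, was lower than with either other guide, at 16.13 and 15.6 TPM, against 22.52 and 22.29 TPM with sgMETTL1.3 and 34.39 and 37.16 TPM with sgNS (-1.12 against sgNS).

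**Figure D5:**
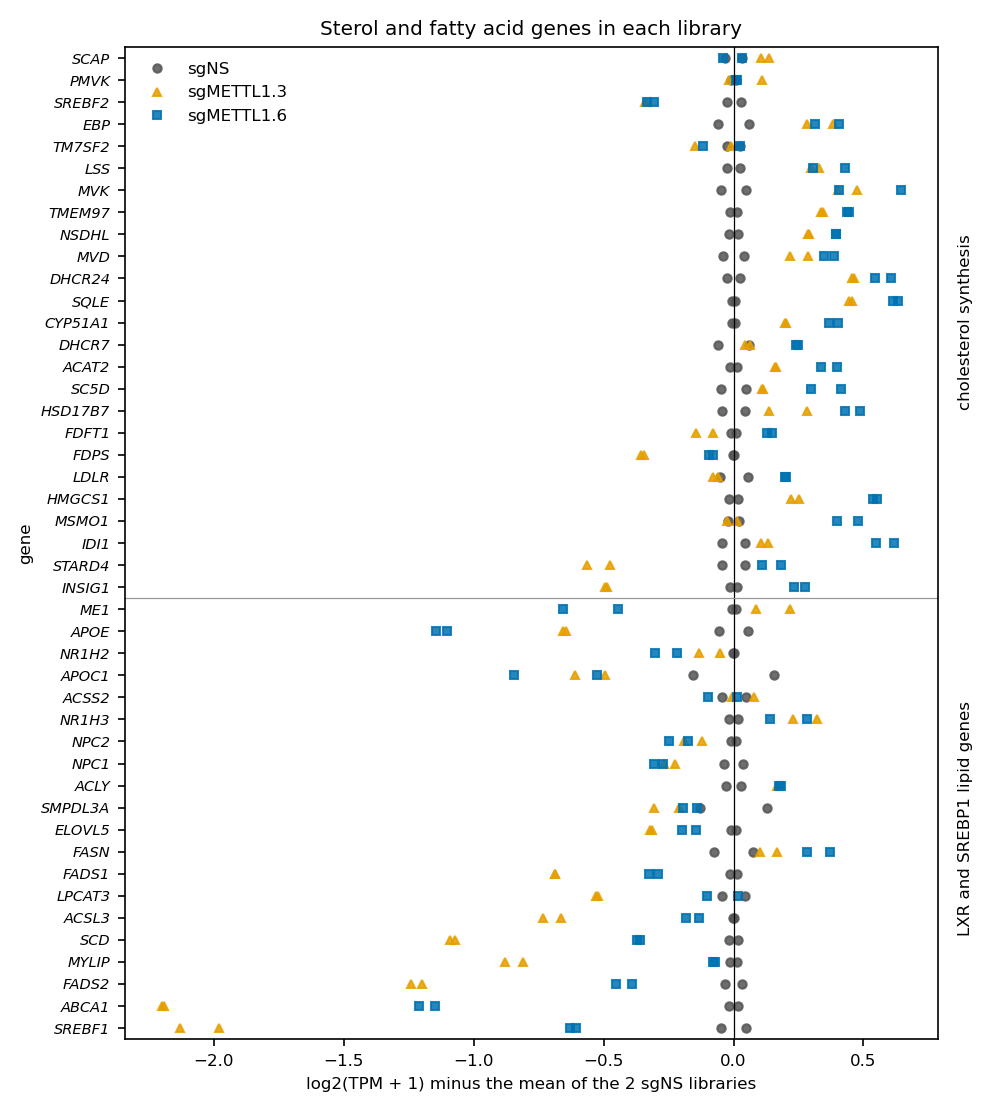
Level of 25 of the 26 cholesterol synthesis genes and of the 20 LXR and SREBP1 lipid genes in each of the 6 libraries, as log2(TPM + 1) minus the mean of the 2 sgNS libraries (horizontal axis); each point is 1 library. INSIG1, IDI1 and MSMO1 are highest with sgMETTL1.6, and for SREBF1 and ABCA1 the sgMETTL1.6 points lie between those of sgNS and sgMETTL1.3.

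Some single genes stood apart from both other groups. Both tests passed with both libraries outside the other 4 for 236 genes on the high side (2.16%) and 527 on the low side (4.83%), and both tests share the sgMETTL1.6 libraries. RGS16, which shortens G protein signals, held 17.7 and 17.59 TPM with sgNS, 17.97 and 18.35 TPM with sgMETTL1.3 and 7.23 and 6.71 TPM with sgMETTL1.6 (log2 change -1.23, SE 0.06, adjusted p = 4.4e-09 against sgNS). The sgNS and sgMETTL1.3 libraries lay together (difference 0.04, adjusted p = 0.61). UPP1, which splits uridine, held 2.46 and 2.48 TPM (sgNS), 2.81 and 3.21 TPM (sgMETTL1.3) and 1.65 and 1.06 TPM (sgMETTL1.6), so its difference rests on low levels. On the high side, DEFB1, a defensin, held 25 and 23.18 TPM (sgNS), 33.41 and 33.33 TPM (sgMETTL1.3) and 47.51 and 50.69 TPM (sgMETTL1.6). GNG10, whose reads overlap the read-through gene DNAJC25-GNG10 and are therefore uncertain, held 44.21 and 39.34 TPM (sgNS), 32.75 and 34.7 TPM (sgMETTL1.3) and 54.2 and 48.32 TPM (sgMETTL1.6). GAL and NMNAT3, also higher than both, lost a call when 1 library was left out. Histone genes were on both sides, but as near-identical, mostly not polyadenylated copies they are not described further.

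The largest rises against sgNS included secreted and surface proteins. WNT7B, a WNT ligand, rose from 2.6 and 1.99 TPM to 8.36 and 9.66 TPM (log2 change 1.61, SE 0.10, adjusted p = 2.7e-08). ADAMTS1, a secreted protease, rose from 21.81 and 21.24 TPM to 65.09 and 63.92 TPM (log2 change 1.54, SE 0.05, adjusted p = 2.0e-11). ADAMTS1 rose with sgMETTL1.3 too, to 70.02 and 66.19 TPM, and the guides did not differ (-0.08, limma, adjusted p = 0.25). SPR, which makes tetrahydrobiopterin, rose from 5.49 and 6.14 TPM to 14.71 and 15.24 TPM, and TFRC, the transferrin receptor, from 243.4 and 237.3 TPM to 469.4 and 438.0 TPM. CCR2, a monocyte chemokine receptor, held 9.89 and 10.76 TPM with sgNS, 33.28 and 34.35 TPM with sgMETTL1.3 and 24.63 and 21.52 TPM with sgMETTL1.6, and EPAS1, a hypoxia-inducible factor, 2.32 and 2.36 TPM (sgNS), 14.41 and 12.86 TPM (sgMETTL1.3) and 6.38 and 7.08 TPM (sgMETTL1.6). Both were therefore higher than with sgNS and lower than with sgMETTL1.3 (-0.54 and -0.92). Of the near-identical genes SMN1 and SMN2, SMN2 held 15.25 and 69.14 TPM with sgNS, 14.18 and 0.08 TPM with sgMETTL1.3 and 0.1 and 0.08 TPM with sgMETTL1.6, while SMN1 held 164.3 and 111.7 TPM (sgNS), 199.8 and 206.2 TPM (sgMETTL1.3) and 214.3 and 211.8 TPM (sgMETTL1.6). Reads of these copies are divided by a model, so their separate changes are uncertain. HBA1 (0.98) lost its call without sgNS replicate 2. Among the 15 largest rises, HYAL2 stood at 1.01, SESN3 at 0.95, DYNLL1 at 0.94 and GPR183 at 0.93, and URGCP-MRPS24, a read-through gene that shares reads with MRPS24, at 1.00.

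Genes of the myeloid programme mostly fell. Of 32 monocyte and macrophage genes 21 fell and 6 rose against sgNS (median -0.26). ITGAX, a complement receptor subunit, fell from 5.54 and 5.86 TPM to 1.9 and 1.79 TPM, CD86, a costimulatory ligand, from 12.69 and 12.69 TPM to 5.91 and 6.34 TPM and CD68, a lysosomal glycoprotein of macrophages, from 230.7 and 235.7 TPM to 166.3 and 171.6 TPM. IRF8, a transcription factor of monocytes, rose from 135.3 and 136.5 TPM to 195.2 and 196.4 TPM. The calprotectin genes S100A8 and S100A9 stood at 2313 and 2256 TPM and 4430 and 4441 TPM, a little above sgNS (0.15 and 0.23) and well below sgMETTL1.3 (-0.52 and -0.50). The 12 monocytic marker genes summed to 14103 and 13576 TPM with sgNS and to 11786 and 11355 TPM with sgMETTL1.6, with 0 of them at 0 TPM in any library, and their part in the other results was not tested. In bulk RNA, fewer cells of a state and less RNA per cell cannot be told apart. Of 37 type I interferon genes 27 fell and 2 rose (median -0.35), with MX1, an antiviral GTPase, at 11.53 and 12.32 TPM with sgNS and 4.06 and 3.93 TPM with sgMETTL1.6 (log2 change -1.37, SE 0.08, adjusted p = 1.1e-08) and CXCL10, a chemokine, at 18.73 and 15.59 TPM and 6.07 and 5.12 TPM (-1.46). The calls of the 2 that rose, BST2 and GBP4, were lost when a library was left out. Against sgMETTL1.3, 9 of the 37 interferon genes were lower, 0 were higher and 28 did not pass. Their median was -0.06, against -0.05 over all genes, of which 15.6% were lower and 7.24% higher. Of 22 genes of the HOXA and MEIS1 programme driven by MLL fusions 5 rose and 8 fell (median -0.08), where 25.7% of all genes rose and 25.4% fell. FLT3, a receptor kinase of this programme, fell from 1800 and 1824 TPM to 1444 and 1389 TPM, and so did PSIP1, which tethers the MLL complex to chromatin (-0.68).

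Immediate early and lysosomal genes separated the guides. Against sgNS, 25.7% of all genes rose and 25.4% fell. Against sgMETTL1.3, 7.24% of all genes were higher and 15.6% lower, with a median of -0.05. Of 27 immediate early genes, which respond within minutes to growth signals, 21 fell and 2 rose against sgNS (median -0.36), but 12 were higher and 2 lower than with sgMETTL1.3 (median 0.10). FOS held 932.0 and 932.5 TPM with sgNS, 499.3 and 506.2 TPM with sgMETTL1.3 and 695.9 and 730.5 TPM with sgMETTL1.6 (log2 change 0.50, SE 0.03, adjusted p = 4.2e-07), and FOSB 125.5 and 136.9 TPM (sgNS), 67.51 and 66.57 TPM (sgMETTL1.3) and 104.1 and 116.1 TPM (sgMETTL1.6), with log2 change 0.71, SE 0.05, adjusted p = 3.0e-06. IER3 went the other way with 50.4 and 48.52 TPM (sgNS), 34.86 and 34.6 TPM (sgMETTL1.3) and 21.79 and 21.86 TPM (sgMETTL1.6). Of 40 lysosome genes 23 fell and 4 rose against sgNS (median -0.14), and 20 were lower and 0 higher than with sgMETTL1.3 (median -0.13), or 16 to 17 lower under the other scalings. CTSD, the main aspartic protease, held 501.8 and 516.2 TPM with sgNS, 589.0 and 610.2 TPM with sgMETTL1.3 and 399.7 and 437.2 TPM with sgMETTL1.6 (log2 change -0.52, SE 0.04, adjusted p = 3.0e-06). TFE3, a transcription factor of lysosomal genes (-0.40), and the calcium channel MCOLN1 (-0.39) were lower than with sgMETTL1.3 too.

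Ribosomal and mitochondrial genes changed by small amounts. Their counts stand beside 25.7% of all genes higher and 25.4% lower against sgNS. Against sgMETTL1.3 these shares were 7.24% and 15.6%. Of 76 cytosolic ribosomal protein genes, 37 fell and 6 rose against sgNS (median -0.06) and 56 were higher and 0 lower than with sgMETTL1.3 (median 0.13). Their summed share of TPM was 22.8% and 22.4% with sgNS, 20.0% and 20.1% with sgMETTL1.3 and 21.9% in both sgMETTL1.6 libraries. These counts depended on the settings: without a trend in the variance model 6 fell against sgNS and 19 were higher than with sgMETTL1.3, and 14 fell against sgNS without sgNS replicate 1. RPS26 stood apart, from 525.8 and 529.8 TPM to 935.1 and 940.2 TPM (log2 change 0.83, SE 0.03, adjusted p = 3.9e-11). RPS26, FTH1 and HSPA8 have processed pseudogenes, between which and the genes the estimation could divide reads. Of 46 ribosome biogenesis genes 35 rose and 3 fell against sgNS (median 0.23), led by UTP20 (0.65), GNL3 (0.52) and NOP16 (0.50), which act in the nucleolus. Of 74 respiratory chain subunits 58 rose and 4 fell (median 0.21), with ATP5J of ATP synthase at 0.57 and NDUFS6 of complex I at 0.44. Of 71 tRNA modification genes 26 rose and 13 fell (median 0.06). PUS7, a pseudouridine synthase (0.51), and IKBKAP, the Elongator scaffold (0.41), rose, and TRMT11, a guanosine methyltransferase (-0.48), fell.

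Counts in the cell cycle and cell death lists are read against 25.7% of all genes higher and 25.4% lower. Of 49 G2/M genes 25 rose and 5 fell (median 0.14), with the mitotic regulators BUB1 (0.61), CKS2 (0.61) and CDC20 (0.46) higher. Of 45 G1/S genes 9 rose and 15 fell (median -0.04), with the replication factors CDT1 (-0.74), PRIM1 (-0.58) and MCM6 (-0.48) lower. Among 15 BCL2 family genes 4 rose and 6 fell. The pro-death members BBC3 (8.94 and 9.65 TPM to 2.83 and 3.12 TPM, -1.37) and PMAIP1 (-0.99) fell and BIK (0.81), also pro-death, rose. Of 26 p53 pathway genes 4 rose and 13 fell (median -0.14), and of 25 NF-κB genes 5 rose and 11 fell (median -0.16). GDF15 is in both the p53 and the stress response lists, so these 2 counts are not independent. CXCL8, the neutrophil attractant, fell from 161.2 and 158.2 TPM to 61.05 and 59.8 TPM, and so did ICAM1, an adhesion molecule (-0.87). SLC40A1, the iron exporter, rose from 20.39 and 20.84 TPM to 35.07 and 34.59 TPM within an iron list of 16 genes, 3 higher and 6 lower.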

How the data were processed

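Poly(A)+ RNA of Mono-mac-6 cells was sequenced with a KAPA stranded mRNA kit, per the labels' protocols, with TRIzol named in the extract protocol and QIAzol in the design text. RSEM 1.2.31 and GRCh38 were used, per the submitters' processing notes. Neither aligner nor annotation was given in the sources used here. As the authors deposited them, TPM were listed for 18806 gene symbols in 6 columns, matched to samples by name. RSEM divides reads of similar transcripts by a model, and TPM are relative, so a change of abundant genes shifts all others.

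Values were analysed as log2(TPM + 1), which understates changes of low genes, with limma 3.58.1 in R 4.3.3. A gene was kept where its mean over the sgMETTL1.6 and sgNS libraries reached 1 TPM. All 3 groups entered 1 model with the variance following the mean level (degrees of freedom: 3 residual, 9.91 prior), and genes were called at a Benjamini-Hochberg adjusted p under 0.05. The script was tested on simulated data. Positions are from GENCODE 29 and promoters from RefSeq on GRCh38.p14. Alternatives were other pseudocounts, filters, scalings and variance models, the replicate number as a block, and each library left out.

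The comparison and the 31 gene lists were chosen with earlier results of these data known. Genes to be named were drawn from METTL1, WDR4 and the tested neighbours of METTL1; the 15 largest rises and 15 deepest falls against sgNS; the 10 of each that lay outside both other groups; and, per list, the 3 members with the lowest p and up to 5 that moved against the majority. The largest rises and deepest falls were taken only among called genes with both sgMETTL1.6 libraries on the same side of both sgNS libraries. Of the genes outside both groups and of the list members only some are named. Other members of the stress response, heat shock, NRF2 and cholesterol lists, and further genes, were added after their values were seen. Some genes are not reported here.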

Additional observations from a re-analysis of the deposited data

Results flagged for a closer look

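In 18 of the genes named here or in the gene lists, both METTL1 guides were called against sgNS, in opposite directions. The test of sgMETTL1.6 against sgMETTL1.3 also passed in these genes (limma, adjusted p under 0.05). Among all 10905 tested genes, 65 were of this kind. Both comparisons with sgNS share the sgNS libraries. The values given are log2 differences of sgMETTL1.6 minus sgMETTL1.3.

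Lower with sgMETTL1.6 were METTL1 (-0.57), the NRF2 targets HMOX1 (-1.36), OSGIN1 (-1.24), FTH1 (-0.71), SRXN1 (-0.46), GSR (-0.37) and TKT (-0.25), and the lysosomal genes CTSD (-0.52), NEU1 (-0.35) and ASAH1 (-0.28). TPSB2, a mast cell tryptase with a near-identical copy, differed by -0.75. Higher with sgMETTL1.6 were the sterol genes INSIG1 (0.74) and FDFT1 (0.25), the protease inhibitor SERPINB1 (0.38), GNG10 (0.59), UGT3A2 (0.51), TPRKB (0.49) and TMEM126B (0.48), which assembles complex I.

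The fall against sgNS was small in 5 of these genes, and its call was lost when a library was left out. ASAH1 was then at -0.07 without sgMETTL1.6 replicate 2, GSR at -0.09 without sgMETTL1.6 replicate 2, NEU1 at -0.06 and TKT at -0.06 without sgMETTL1.6 replicate 1, and TPSB2 at -0.14 without sgNS replicate 2.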

How the results depend on the processing

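Against sgNS, the counts of genes higher and lower stayed within 1.5 times of 2799 and 2771 under the alternatives run, and the METTL1 change ranged from -0.26 to -0.40 and passed in each. Of the 346 named genes tested against sgNS, 288 kept their call and 58 lost or gained it somewhere; against sgMETTL1.3, 117 of 181 kept it and 64 did not. Where the main fit or the alternative made a call, the direction turned in 0 of them. Turns of sign without a call in either fit were not counted. Against sgMETTL1.3, the number of genes higher was 366 without a filter and 455 without the trend, and ranged from 432 to 823 with 1 library left out, against 789; it was 478 and 432 without sgMETTL1.3 replicates 1 and 2 and 504 without sgMETTL1.6 replicate 1. The number lower was 731 without a filter, 808 after median-ratio scaling, 798 after quantile normalisation, 959 without ribosomal protein genes and 936 without the trend, and ranged from 778 to 1653 with 1 library left out, against 1705; it was 790 and 778 without sgMETTL1.3 replicates 1 and 2 and 947 without sgMETTL1.6 replicate 1. The cause was not tested. Same-numbered replicates correlated by 0.21, -0.01 and 0.13 in their deviations (sgNS with sgMETTL1.6, sgNS with sgMETTL1.3 and guide with guide), not all over 0.1, so the numbers were not taken to pair the libraries; with the replicate block 3139 were higher and 3054 lower against sgNS, and 1103 and 2498 against sgMETTL1.3. The fit on only the 4 libraries of sgNS and sgMETTL1.6 gives no value between the guides. With 2 libraries a group, depth unknown and 1 clone, small changes rest on little replication.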

Other observations

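Of 22 glycolysis genes, 10 rose and 5 fell with sgMETTL1.6 against sgNS (median 0.03; limma, adjusted p under 0.05). PGAM1 and GPI, which act in the core pathway, rose by 0.30 and 0.33 on the log2 scale. SLC2A3, a glucose transporter, fell from 17.33 and 17.63 TPM to 6.89 and 6.79 TPM, and was listed at 5.3 and 5.12 TPM with sgMETTL1.3. Of 15 hypoxia targets 3 rose and 6 fell (median -0.11). Among 26 genes of the METTL family 9 rose and 7 fell (median 0.04), near the 25.7% and 25.4% of all genes, with METTL4 at -0.40. Of 20 replication-dependent histone genes, whose copies are nearly identical, 2 rose and 7 fell.

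The proteins of primary granules, the protease stores of myeloid cells, gave 3 of 11 genes higher and 4 lower against sgNS, where 25.7% of all genes rose and 25.4% fell. PRTN3 held 318.7 and 322.2 TPM with sgNS, 427.4 and 452.9 TPM with sgMETTL1.6, and 599.8 and 633.6 TPM with sgMETTL1.3, so the sgMETTL1.6 libraries lay between the others. CTSG was highest with sgMETTL1.6, at 8466 and 8811 TPM, and MPO fell against sgNS by 0.36 on the log2 scale. C3, a complement protein, held 7.61 and 7.86 TPM with sgMETTL1.3, whereas it held 1.72 and 1.95 TPM with sgMETTL1.6 and 1.42 and 1.19 TPM with sgNS (-1.62 against sgMETTL1.3, adjusted p = 4.2e-07).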
